A study of Rattus norvegicus with 46 samples.

Results

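The genes described are 10 of the 30045 in the deposited tables: S100a8, S100a9, Mmp8, Mmp9, Ngp, Pglyrp1, Padi4, Cd177, Camp and Ltf. They were taken by gene name from all 4 count tables, as genes whose products fill neutrophil granules or take part in neutrophil activation, and each name stood on 1 row of each table. RNA was sequenced from lung and from whole blood of aged male Fischer 344 rats. The silica rats breathed crystalline silica (Min-U-Sil 5, a respirable quartz dust) at 15 mg/m3 in a whole-body chamber, 6 hours a day on 5 days, and the air rats were kept the same way in filtered air. Tissue was taken 1 day or 6 months after the exposure. The labels give no genotype and no treatment beside the exposure, and each of the 4 silica groups was set against the air group of its own tissue and time. The 46 samples made 8 groups of 6, except the air lungs of 6 months, which held 4.

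Neutrophils are short-lived phagocytes that leave the bone marrow already loaded with granules, and they enter the lung within hours of an inhaled irritant. Their granule proteins are made in waves: azurophil granule genes are read in promyelocytes, specific granule genes such as Camp, Ltf and Ngp in the next precursor stages, and gelatinase granule genes such as Mmp9 later. A circulating neutrophil thus carries much granule protein and, for many of these genes, little of the matching messenger RNA. S100a8 and S100a9 encode the cytosolic calcium-binding pair that forms calprotectin and stay strongly transcribed in mature cells. Inhaled quartz is a textbook cause of lasting neutrophilic inflammation in the rat lung.

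The promoters of 3 members are shown because these genes carry the results that follow. S100a9 and Cd177 had the largest lung differences of the 10 members at 1 day, and Mmp8 was the granule protease that differed in lung at both times. The sequences are from RefSeq (assembly GRCr8, another build than the Rnor_6.0 of the counts), run from 250 bases before to 50 bases after the annotated start, and were found for 7 of the 10 members. Capitals mark the searched motifs TTNNGCAA (a C/EBP-type half-site pair) and GAGGAA (a PU.1-type core) on either strand.
S100a9 promoter (chr2:178490573-178490872, minus strand): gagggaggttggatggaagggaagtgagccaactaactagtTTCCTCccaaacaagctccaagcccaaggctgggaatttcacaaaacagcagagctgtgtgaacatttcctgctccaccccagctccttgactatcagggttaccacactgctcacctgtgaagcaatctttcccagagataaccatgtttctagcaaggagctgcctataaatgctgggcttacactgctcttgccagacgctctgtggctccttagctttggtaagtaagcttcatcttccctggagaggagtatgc
Cd177 promoter (chr1:89488394-89488693, minus strand): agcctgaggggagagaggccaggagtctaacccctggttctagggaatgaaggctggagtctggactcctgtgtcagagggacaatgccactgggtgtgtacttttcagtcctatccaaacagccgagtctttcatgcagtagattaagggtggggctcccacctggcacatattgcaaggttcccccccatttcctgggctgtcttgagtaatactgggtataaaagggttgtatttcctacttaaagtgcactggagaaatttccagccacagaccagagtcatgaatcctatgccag
Mmp8 promoter (chr8:13008640-13008939, plus strand): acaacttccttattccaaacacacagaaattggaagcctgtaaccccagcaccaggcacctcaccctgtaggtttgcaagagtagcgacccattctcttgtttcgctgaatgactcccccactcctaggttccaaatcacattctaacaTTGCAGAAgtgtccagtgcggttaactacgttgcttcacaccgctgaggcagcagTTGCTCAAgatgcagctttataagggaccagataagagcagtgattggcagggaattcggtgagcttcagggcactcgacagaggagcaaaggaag
TTNNGCAA was present in 2 of the 7 promoters (Mmp8 and Ngp, each with 2 matches), against 10.6% of all 33469 rat promoters of the same length. GAGGAA was present in 2 of 7 (S100a9 and Pglyrp1), against 27.6% of all promoters. The Cd177 window held neither. These matches describe letters only.

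Total estimated counts were 13.4 to 24.6 M per lung sample and 10.6 to 17.5 M per blood sample, so that 3 counts, used as the floor, equal 0.123 to 0.282 CPM (counts of a gene scaled to a library total of 1 M). Within lung groups, 5 pairs of libraries differed little beyond sampling noise, with 7.69% to 9.65% of genes at p under 0.05 by a chi-square test. Sampling noise by itself would give 5%, and the remaining 46 pairs within a lung group had 21.3% to 73.1%. Each such pair was averaged and counted as 1 sample. This leaves 6 silica and 4 air lungs at 1 day, 5 silica and 2 air lungs at 6 months, and 6 libraries in each blood group. Whether samples of 1 group came from different rats is not stated in the labels, and each p-value reflects variation among the libraries used. Several libraries stood apart. Summed over 12 NK cell markers, the silica lungs of 6 months had 352 to 1120 CPM, against 3445 and 3074 CPM in the air lungs of that time, which in turn stood above the 339 to 731 CPM of the air lungs of 1 day. Blood silica library 31 and blood air library 25 of 6 months had TMM scaling factors of 0.521 and 1.93, the extremes of blood, where lung factors were 0.950 to 1.03. Blood silica library 11 of 1 day is described with the blood results.

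As to the tissues, most of these genes had higher CPM in blood than in lung in air rats of 1 day, and Cd177 had lower. In air rats 1 day after exposure, mean CPM in blood was 18.4 times that in lung for S100a9, 17.3 times for Mmp8, 17.0 times for S100a8, 12.3 times for Camp, 11.3 times for Pglyrp1, 11.1 times for Ngp, 9.52 times for Mmp9 and 5.56 times for Padi4, and for these 8 genes every blood library was above every lung library. The share of all genes with such a separation of the tissues is not given. The receptors Csf3r (for granulocyte colony-stimulating factor) and Cxcr2 (for CXC chemokines), which mark mature neutrophils, stood 12.2 and 13.8 times higher in the same air blood. Cd177, which encodes a surface glycoprotein that holds proteinase 3 on human neutrophils, ran the other way. It had 5.50 CPM at the lowest, 9.03 at the median and 20.9 at the highest in 1 day air blood, against 182, 188, 150 and 124 CPM in the 4 air lungs, and in all 4 pairings of tissue within a group its blood libraries lay below its lung libraries. Lcn2, the specific granule gene for the siderophore-binding protein lipocalin 2, had the same order, with 0.061 to 0.282 CPM in 1 day air blood against 5.19 to 9.87 CPM in the air lungs. In silica rats blood and lung overlapped for S100a8 and S100a9 at both times. Their blood to lung ratios there were 10.8 and 7.18 at 1 day and 3.90 and 2.39 at 6 months. The others of the 8 genes did not overlap in any pairing. Lung and blood levels come from separately deposited tables, so these ratios are descriptions without a test. CPM is scaled by library total alone. In a joint fit of both tissues at 1 day, TMM factors were 0.549 to 0.733 in air blood and 1.75 to 1.86 in air lung. Scaling by them would raise blood against lung for every gene. In whole tissue, a change in the number of cells and a change in RNA per cell cannot be told apart. The estimated counts of Cd177 were not whole (beyond a tolerance of 1e-06) in 34.8% of samples, as happens when reads are shared between transcripts, and how far this affects its level is unknown. The other 9 members had whole counts in every sample.

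Ltf, which encodes the iron-binding protein lactoferrin of specific granules, was at the limit of counting in all libraries. It had 0 counts in 15 of 17 lung libraries and in 6 of 24 blood libraries, and at most 2 counts in lung and 3 in blood. A count of 0 allows up to 0.123 to 0.224 CPM in lung and 0.171 to 0.282 CPM in blood (counting error only), no fold change is given, and Ltf passed the filter on low counts in no comparison. The other 9 members passed it in every comparison. Among azurophil granule genes, Mpo (myeloperoxidase) had at most 0.309 CPM in any lung library and 0.331 CPM in any blood library, and Elane (neutrophil elastase) at most 0.223 CPM in lung and 1.30 CPM in blood. Elane in blood had 1 to 20 counts per library, and its mean level in the 4 blood groups was 0.453 to 0.753 CPM, above the floor. Mpo and Elane were thus far below S100a8 and S100a9 in the same blood libraries.

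One day after silica, the lungs had more S100a8, S100a9, Mmp8 and Cd177 RNA than air lungs, and the other 5 tested members did not pass the test. Of 15724 genes tested, 11.7% passed at an adjusted p under 0.05, and 4 of 9 members did, all higher in silica. The median log2 fold change was 0.40 over the 9 members and 0.00 over all genes.

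S100a9 had 299 CPM at the lowest, 332 at the median and 476 at the highest in silica lungs, against 112, 82.5, 90.0 and 100 CPM in air lungs. Every silica lung lay above every air lung, by 3.67 times in the mean (log2 fold change 1.90 ± 0.14, SE; adjusted p = 2.54e-05, edgeR). Its partner S100a8 had 79.5, 87.8 and 126 CPM as lowest, median and highest silica lung, against 48.5, 36.1, 40.1 and 48.5 CPM in air lungs. These groups too did not overlap, with a smaller difference of 2.12 times (1.104 ± 0.148, adjusted p = 0.00115). Silica library 13 was the highest for both genes.

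Cd177 showed the largest lung difference of the members at 1 day. Silica lungs had 628 CPM at the lowest, 731 at the median and 801 at the highest, against 182, 188, 150 and 124 CPM in air lungs, a difference of 4.46 times (2.18 ± 0.12, adjusted p = 1.06e-06). Mmp8, the neutrophil collagenase of specific granules, had 11.8, 13.3 and 16.4 CPM as lowest, median and highest silica lung, against 9.53, 6.65, 6.96 and 9.88 CPM in air lungs. The groups did not overlap, and the difference was 1.63 times (0.73 ± 0.13, adjusted p = 0.00268). In a fit that shares 1 spread among all 4 lung groups, S100a9 and Cd177 still passed and S100a8 and Mmp8 did not.

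The members that did not pass at 1 day overlapped between the groups. The share of all genes whose silica and air lungs separate at 1 day is not given, so this separation has no background. Mmp9, gelatinase B, had 7.36 to 10.7 CPM in silica lungs and 3.74 to 8.69 CPM in air lungs (0.40 ± 0.20, adjusted p = 0.246). Padi4, the deiminase that converts histone arginines when neutrophils release chromatin traps, had 3.77 to 7.57 CPM in silica lungs and 3.23 to 5.67 CPM in air lungs (0.34 ± 0.23, adjusted p = 0.414). For the peptidoglycan-binding protein gene Pglyrp1 the ranges were 1.74 to 2.91 CPM in silica lungs and 1.29 to 2.47 CPM in air lungs (0.30 ± 0.22, adjusted p = 0.440). Camp, the cathelicidin precursor, ranged over 0.851 to 1.69 CPM in silica lungs and 0.748 to 1.11 CPM in air lungs (0.25 ± 0.26, adjusted p = 0.633). Ngp, a granule protein of the cystatin superfamily known from mouse, was the single member with a negative value, at 0.987 to 2.13 CPM in silica lungs and 1.68 to 2.62 CPM in air lungs (-0.48 ± 0.24, adjusted p = 0.235).

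**Figure D1:**
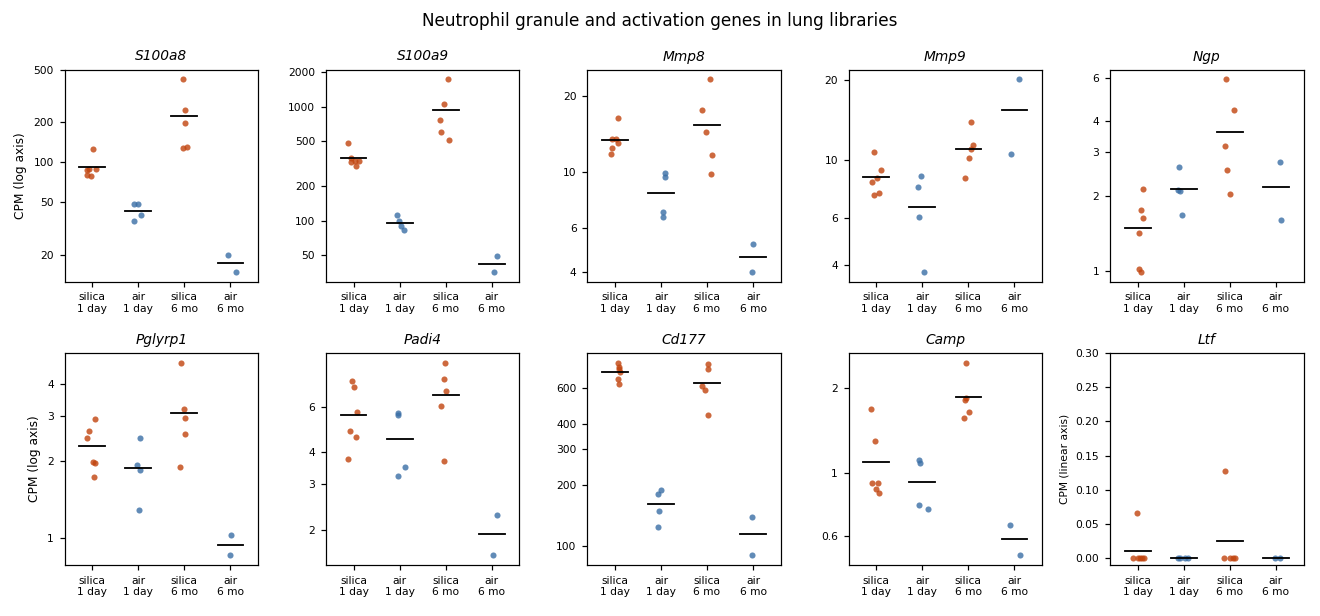
CPM of the 10 genes in each lung library (points), with group means as lines, in silica (red) and air (blue) lungs at 1 day (6 and 4 libraries) and 6 months (5 and 2 libraries). Axes are logarithmic except for Ltf. The 6 silica lungs of 1 day lie above the 4 air lungs for S100a8, S100a9, Mmp8 and Cd177, and the air lungs of 6 months are the lowest group for S100a8, S100a9, Mmp8, Pglyrp1, Padi4, Cd177 and Camp.

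In lungs taken 6 months after silica, 7 of the 9 tested members were higher in silica lungs than in air lungs, and Mmp9 and Ngp did not pass. Here 19.6% of 16267 genes passed. The median log2 fold change was 1.77 over the members and 0.00 over all genes. These calls lean on 2 air libraries: without air library 19-24 no member passed (56 genes in all), and without air library 20-25 S100a9 and Cd177 passed (1063 genes).

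S100a9 had 510, 759, 1740, 1061 and 595 CPM in the 5 silica lungs, against 35.3 and 48.5 CPM in the 2 air lungs, or 22.3 times in the mean (log2 fold change 4.52 ± 0.64, adjusted p = 0.00695). S100a8 had 127, 197, 424, 247 and 131 CPM in silica lungs, against 14.8 and 20.04 CPM in air lungs, or 12.9 times (3.73 ± 0.61, adjusted p = 0.00918). No silica lung came near an air lung for either gene, and silica library 33 was the highest for both. Cd177 had 441, 587, 787, 742 and 616 CPM in silica lungs, against 90.3 and 139 CPM in air lungs, or 5.53 times (2.50 ± 0.31, adjusted p = 0.00543).

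Mmp8 had 14.5, 23.4, 11.7, 17.7 and 9.84 CPM in silica lungs, against 3.99 and 5.16 CPM in air lungs (1.77 ± 0.36, adjusted p = 0.0159). Library 33, highest for S100a9, was second lowest for Mmp8. Padi4 had 3.71, 7.67, 8.88, 6.03 and 6.92 CPM in silica lungs, against 2.28 and 1.60 CPM in air lungs (1.80 ± 0.40, adjusted p = 0.0202). Pglyrp1 had 2.55, 2.95, 4.86, 3.21 and 1.90 CPM in silica lungs, against 0.856 and 1.03 CPM in air lungs (1.74 ± 0.43, adjusted p = 0.0282). The Pglyrp1 call was also lost without silica library 32 or 34 (1.78 and 1.72, adjusted p = 0.0510 and 0.0634). Camp had 1.56, 2.46, 1.84, 1.82 and 1.65 CPM in silica lungs, against 0.514 and 0.657 CPM in air lungs (1.69 ± 0.31, adjusted p = 0.0119). For all 4 of these genes the 5 silica lungs lay above both air lungs, at levels of a few CPM for Padi4, Pglyrp1 and Camp. The share of all genes that separate in this way between 5 and 2 libraries is not given, so the separation has no background. Ngp overlapped, with 5.91, 4.43, 3.18, 2.54 and 2.03 CPM in silica lungs and 2.74 and 1.60 CPM in air lungs (0.75 ± 0.45, adjusted p = 0.283). Mmp9 was the exception in sign, with 11.01, 13.9, 10.1, 11.3 and 8.51 CPM in silica lungs and 20.2 and 10.6 CPM in air lungs (-0.47 ± 0.28, adjusted p = 0.275).

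The silica effect in lung was larger at 6 months than at 1 day for 6 members, tested as a difference of effects. S100a8 differed by 2.5997 ± 0.51 and S100a9 by 2.596 ± 0.49 on the log2 scale (adjusted p = 0.00226 and 0.00181). Padi4 differed by 1.44 ± 0.45, Camp by 1.41 ± 0.39, Pglyrp1 by 1.41 ± 0.43 and Mmp8 by 1.02 ± 0.34 (adjusted p = 0.0259, 0.0151, 0.0244 and 0.0342). Cd177 did not pass, at 0.29 ± 0.27 (adjusted p = 0.456). The background is high, since 26.8% of 16567 genes passed this test, and without air library 19-24 of 6 months the members that passed numbered 2. Calls near the threshold rested on single libraries of several groups. Mmp8 no longer passed on leaving out any 1 of air libraries 02-07 and 06 or silica libraries 10 and 12 of 1 day, air libraries 19-24 and 20-25 or silica library 34 of 6 months (0.89 to 1.22, adjusted p = 0.0509 to 0.194). The same held for Padi4 without air library 02-07, 06, 19-24 or 20-25 (1.205 to 1.76, adjusted p = 0.0528 to 0.130), and for Pglyrp1 without air library 05, 19-24 or 20-25 (1.25 to 1.55, adjusted p = 0.0531 to 0.138).

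Setting the times against each other within each exposure shows where these differences sat. These 2 comparisons share their libraries with the tests above, so their values are given side by side and not as added evidence. The times come from separately deposited tables of unscaled counts, so that time since exposure, the age of the rats and any difference in library preparation or sequencing between the tables cannot be told apart here. In silica lungs, 6 months against 1 day, 9.64% of genes passed, and 4 of 9 members did, all higher at 6 months: S100a9 by 1.45 ± 0.26, S100a8 by 1.35 ± 0.27, Ngp by 1.30 ± 0.27 and Camp by 0.81 ± 0.21 (log2 fold change; adjusted p = 0.00479, 0.00778, 0.00999 and 0.0252). For S100a8 and S100a9 every silica lung of 6 months lay above every silica lung of 1 day. The Camp call was lost without silica library 12, 13 or 15 of 1 day (0.76 to 0.78, adjusted p = 0.0514 to 0.0575). Mmp8 (0.23 ± 0.18), Padi4 (0.29 ± 0.24), Mmp9 (0.39 ± 0.21), Pglyrp1 (0.48 ± 0.23) and Cd177 (-0.14 ± 0.15) did not pass, and neither did Csf3r (-0.04 ± 0.18) or Cxcr2 (-0.16 ± 0.16).

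In air lungs, 6 months against 1 day, 41.5% of genes passed, so a call is common in this comparison. Of the members 5 of 9 passed, not far from that share. S100a8 fell by 1.25 (SE 0.42), Padi4 by 1.15 (SE 0.38), S100a9 by 1.14 (SE 0.40) and Mmp8 by 0.79 (SE 0.28) on the log2 scale, with adjusted p between 0.0225 and 0.0341, and Mmp9 was higher by 1.29 ± 0.29 (adjusted p = 0.00199). Csf3r and Cxcr2 fell by 1.92 (SE 0.30) and 1.68 (SE 0.27). Leaving out 1 of the 2 late air libraries leaves 1 in that group, so only values are given. Without 19-24, S100a8, S100a9, Mmp8, Padi4 and Mmp9 were at -1.08, -0.957, -0.647, -1.46 and 0.708. Without 20-25, S100a8, S100a9, Mmp8 and Padi4 were at -1.48, -1.38, -0.985 and -0.915. S100a9, Mmp8 and Padi4 did not pass without air library 02-07 or 06 of 1 day (adjusted p = 0.0532 to 0.0793, edgeR). These calls thus rest on single libraries. Csf3r had 55.7, 74.3, 58.0, 70.9 and 38.9 CPM in the silica lungs of 6 months, within or near the 52.4 to 90.6 CPM of the silica lungs of 1 day, while the air lungs had 7.48 and 11.3 CPM at 6 months and 29.8 to 44.4 CPM at 1 day. In silica lungs, then, S100a8 and S100a9 were higher at 6 months while Csf3r and Cxcr2 did not pass. Mmp8 and Padi4 did not pass in silica lungs, and their lower values in air lungs rest on the 2 late air libraries. The 2 air lungs of 6 months also differed from the air lungs of 1 day in other cell markers: 10 of 12 NK cell markers were higher, 8 of 10 B cell markers lower and 1 higher, and 8 of 11 lung epithelium markers lower. The part of these cell types in the results at 6 months was not tested.

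**Figure D2:**
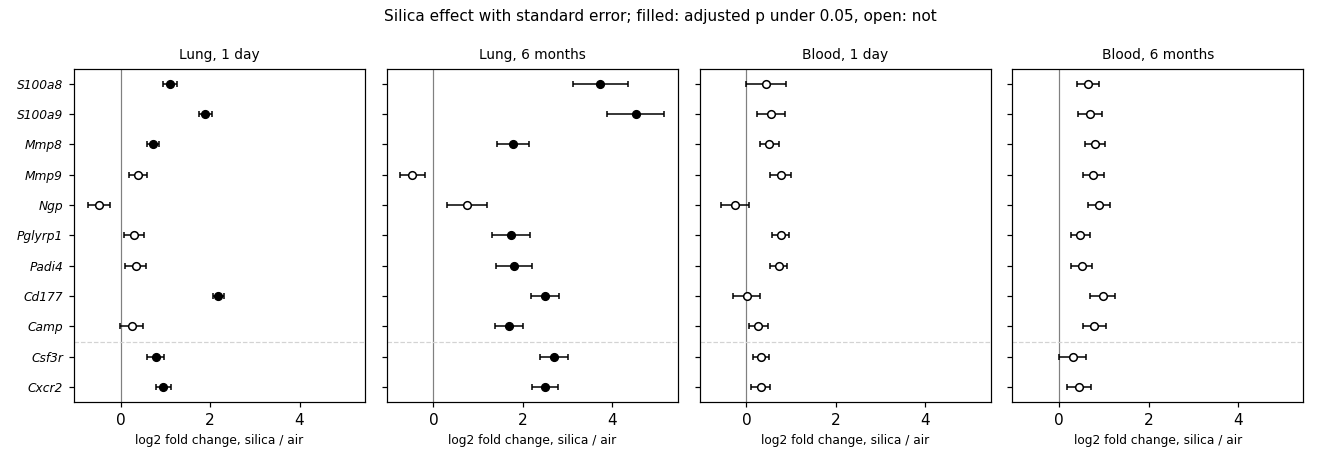
Log2 fold change of silica over air (points) with its standard error (bars) for the 9 tested members and, under the dashed line, the neutrophil receptor genes Csf3r and Cxcr2, in lung and blood at both times. Filled points passed at an adjusted p under 0.05. In lung 4 members are filled at 1 day and 7 at 6 months, and in blood all points are open, between -0.26 and 0.97.

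Counts of 1 gene over another inside the same library do not depend on sequencing depth. The ratio of S100a9 to S100a8 counts (not corrected for length) was 3.38 to 4.14 in silica lungs of 1 day, against 2.06 to 2.31 in air lungs, and 3.86 to 4.55 in silica lungs of 6 months, against 2.38 and 2.42 in air lungs. Silica lungs and air lungs did not overlap at either time, so the pair did not move in step. In blood the ratio was 2.37 to 2.59 in 5 silica libraries of 1 day and 7.59 in library 11, against 1.95 to 2.98 in air, and 2.35 to 2.69 in silica against 2.30 to 2.71 in air at 6 months. Silica lungs thus had a higher ratio than any blood library but 1.

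Set against Csf3r, S100a9 was again higher in silica lungs, at 4.86 to 6.42 reads per Csf3r read at 1 day, against 2.39 to 2.84 in air lungs, and 9.16 to 30.0 at 6 months, against 4.72 and 4.29 in air lungs. Mmp8 was not: its ratio to Csf3r was 0.181 to 0.248 in silica lungs of 1 day, against 0.215 to 0.236 in air lungs, and at 6 months it was lower in silica lungs, at 0.202 to 0.315, against 0.534 and 0.456 in air lungs. At 6 months Mmp9, Ngp, Pglyrp1 and Camp over Csf3r were lower in silica lungs too, without overlap, and Padi4 overlapped. Mean Csf3r itself was 6.34 times higher in silica lungs than in the 2 air lungs, so a gene that rose less has a lower ratio. Mean CPM of Mmp8, Pglyrp1, Camp, Ngp and Mmp9 was 3.37, 3.28, 3.19, 1.67 and 0.714 times that of air lungs. The share of all genes whose ratio to Csf3r separates in this way is not given. S100a8 over Csf3r overlapped at 1 day (1.18 to 1.62 against 1.09 to 1.27) and was higher in silica lungs at 6 months (2.28 to 7.30 against 1.77 and 1.98). Cd177 over Csf3r was 8.84 to 13.9 in silica lungs of 1 day, against 2.97 to 6.32 in air lungs, and 7.90 to 15.8 in silica lungs of 6 months, against 12.1 and 12.3 in air lungs. In blood the Cd177 ratio was 0.0137 to 0.0645 in silica libraries and 0.0137 to 0.0851 in air libraries. The ratio of Cxcr2 to Csf3r, 2 receptors of the same cells, overlapped between silica and air lungs at both times (0.421 to 0.518 against 0.391 to 0.454 at 1 day).

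**Figure D3:**
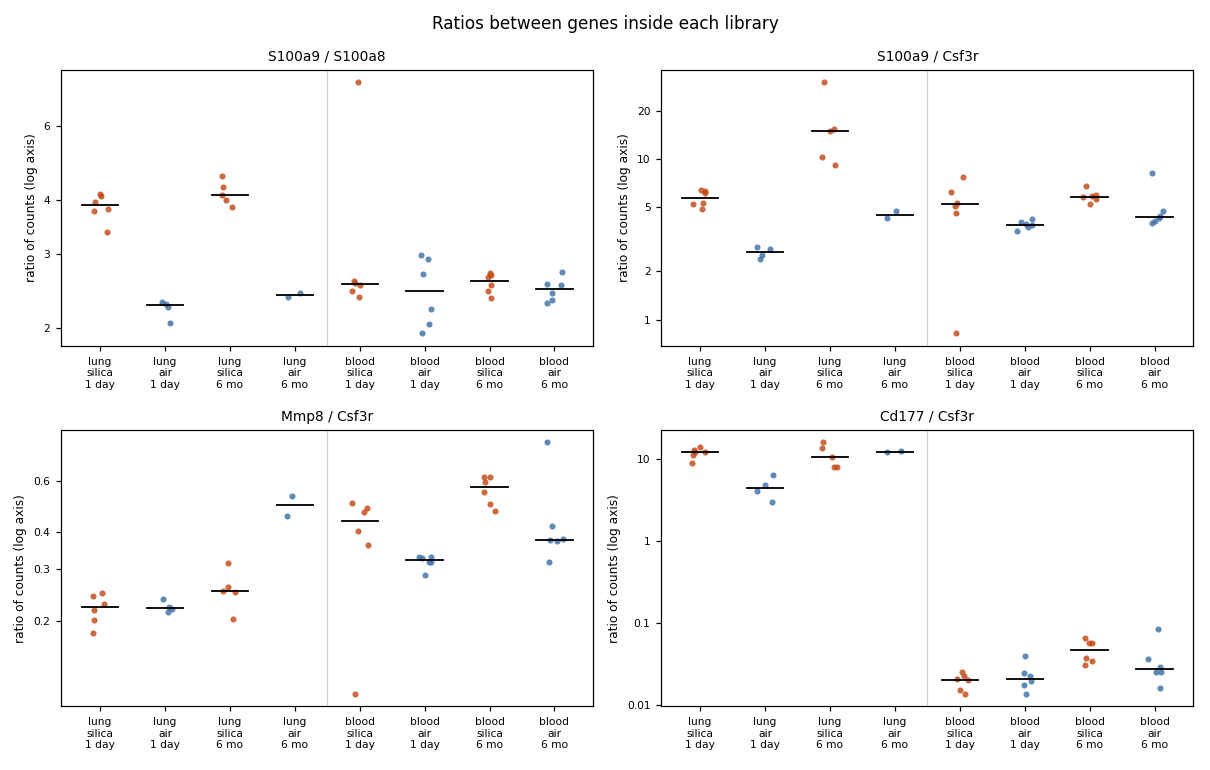
Ratio of the counts of 2 genes inside each library (points, logarithmic axes) with the median of each group (lines), for lung on the left and blood on the right of each panel, silica in red and air in blue. S100a9 over S100a8 separates silica from air lungs at both times (3.38 to 4.55 against 2.06 to 2.42), Mmp8 over Csf3r does not at 1 day, and Cd177 over Csf3r is 7.90 to 15.8 in silica lungs and at most 0.0851 in blood.

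In blood 1 day after silica no member passed, and no gene did (0.0% of 11876 by edgeR; 430 genes, or 3.62%, had an unadjusted p under 0.05, and DESeq2 also called 0). Of the 9 tested members, 8 had a positive log2 fold change, with a median of 0.51 against -0.01 over all genes, and 4 had an unadjusted p under 0.05: Pglyrp1 (0.77 ± 0.19), Mmp9 (0.76 ± 0.23), Padi4 (0.72 ± 0.20) and Mmp8 (0.51 ± 0.21). Pglyrp1 had 27.4, 33.4 and 39.7 CPM as lowest, median and highest silica library, against 13.995, 21.4 and 28.6 CPM in air. Mmp9 had 86.1, 98.5 and 116 CPM in silica, against 28.4, 62.4 and 87.6 CPM in air. For both genes the groups overlapped at 1 edge. Their adjusted p-values were 1.00.

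Blood silica library 11 differed from the other 5 silica libraries in part of the set. It had 58.8 CPM of S100a8 and 446 CPM of S100a9, against 936 to 1652 CPM and 2421 to 4227 CPM in the other 5, and 61.3 CPM of Mmp8 and 78.0 CPM of Cxcr2, against 179 to 300 CPM and 239 to 435 CPM. Its Mmp9 (98.4 CPM), Padi4 (42.9 CPM), Pglyrp1 (35.4 CPM) and Csf3r (544 CPM) lay within the range of the others. So the library was low in some neutrophil genes and ordinary in others. Across all 6 libraries S100a9 had 446, 2576 and 4227 CPM as lowest, median and highest silica library, against 1289, 1636 and 2481 CPM in air (0.55 ± 0.30), and S100a8 had 58.8, 1070 and 1652 CPM in silica, against 444, 769 and 976 CPM in air (0.44 ± 0.45). Without library 11 these values were 0.75 for S100a9 and 0.69 for S100a8. The median over the members was then 0.64, with 7 of 9 positive, and the lowest adjusted p of a member was 0.226. Cd177, the largest lung difference, was at 7.03, 10.6 and 11.3 CPM in silica blood, against 5.50, 9.03 and 20.9 CPM in air blood (0.01 ± 0.31). Ngp had 12.1, 20.3 and 22.4 CPM in silica, against 15.3, 19.8 and 48.8 CPM in air (-0.26 ± 0.31), and Camp 10.6, 12.6 and 15.2 CPM in silica, against 8.08, 10.6 and 17.6 CPM in air (0.27 ± 0.21).

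In blood 6 months after silica again no member passed, with 0.0% of 11615 genes past the threshold by edgeR (720 genes, or 6.20%, at an unadjusted p under 0.05; DESeq2 called 2 genes, neither a member). All 9 tested members were positive, with a median of 0.76 against 0.01 over all genes, and 7 had an unadjusted p under 0.05, each with an adjusted p of 0.658. Markers of other blood cells lay to 1 side as well: 18 of 18 erythroid markers were positive (median 0.57), 10 of 10 B cell markers (0.42) and 10 of 10 platelet markers (0.30), while 0 of 12 NK cell markers were (-0.69), and none passed. Summed over the NK cell markers, silica blood had 146 to 932 CPM, against 3606 CPM in air library 25 and 314 to 649 CPM in the other 5 air libraries. Erythroid markers summed to 47661 to 79462 CPM in silica blood, against 41886 to 70209 CPM in air blood. The part of these cells in the members' values was not tested. The largest were Cd177 (0.97 ± 0.28), Ngp (0.88 ± 0.25), Mmp8 (0.80 ± 0.22), Camp (0.78 ± 0.26) and Mmp9 (0.76 ± 0.24). Ngp had 22.998, 30.5 and 43.2 CPM as lowest, median and highest silica library, against 13.03, 21.3 and 34.4 CPM in air. Cd177 had 10.5, 15.9 and 27.9 CPM in silica, against 6.59, 11.02 and 16.1 CPM in air. Groups overlapped for every member.

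S100a9 had 941, 2475 and 2751 CPM as lowest, median and highest silica library of 6 months, against 1171, 1589 and 2129 CPM in air (0.68 ± 0.26), and S100a8 had 349, 980 and 1029 CPM in silica, against 459, 647 and 913 CPM in air (0.65 ± 0.25). In both the lowest silica value was library 31. Mmp8 had 101, 210 and 276 CPM in silica, against 99.4, 147 and 175 CPM in air. Without libraries 31 and 25, a choice made after seeing their scaling factors, all 9 members stayed positive, with a median of 0.70. The lowest adjusted p of a member was then 0.681. Silica blood lay above air blood for S100a8, S100a9 and Mmp8 there, and the other tested members overlapped. The share of all genes that separated in this way is not given. With libraries scaled by total count alone, the members' median was 0.45 and their lowest adjusted p was 0.632. No gene passed the test of a difference in the blood effect between the times (0.0% of 12264 by edgeR, 335 genes at an unadjusted p under 0.05), with members from -0.30 ± 0.30 (Pglyrp1) to 1.14 ± 0.42 (Ngp, adjusted p = 0.999).

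**Figure D4:**
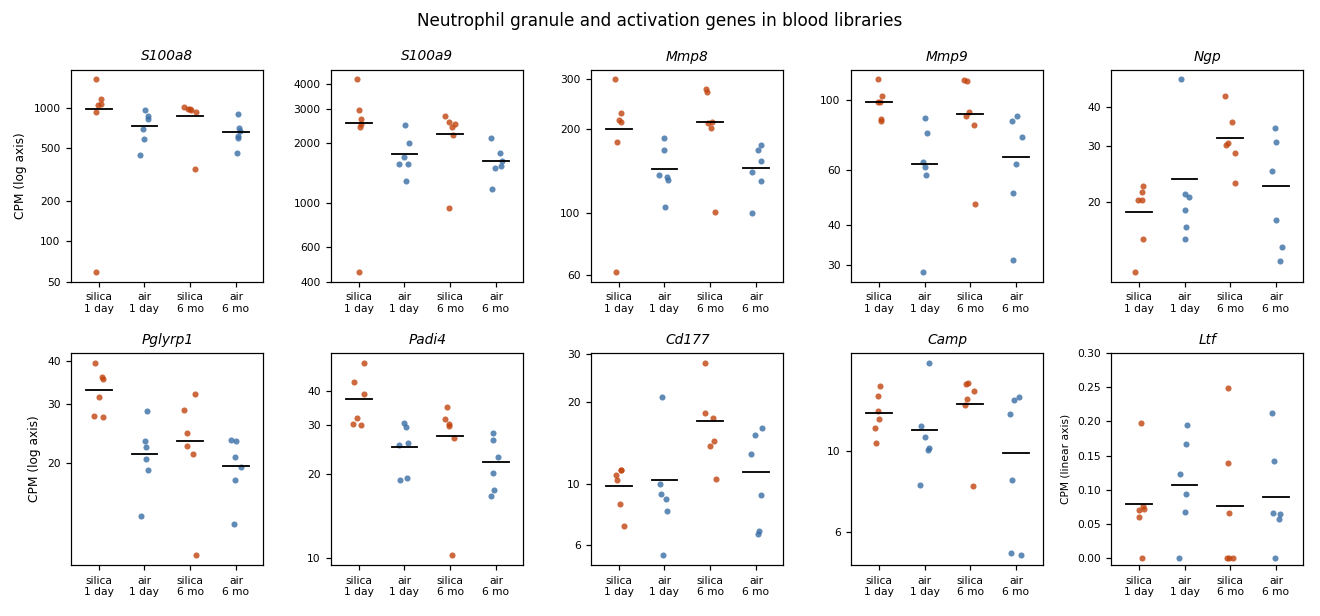
CPM of the 10 genes in each blood library (points, 6 per group), with group means as lines, in silica (red) and air (blue) blood at 1 day and 6 months. Axes are logarithmic except for Ltf. The low silica point of 1 day in S100a8 (58.8 CPM), S100a9 (446 CPM) and Mmp8 (61.3 CPM) is library 11, and silica and air overlap in every panel.

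The tissues were then compared by the difference of their silica effects, blood minus lung. At 1 day 0.192% of 16148 genes passed, and among the members Cd177 did, at -2.17 ± 0.37 (adjusted p = 0.00779): its effect was 0.01 in blood and 2.18 in lung. Among the libraries whose numbers occur in both tissues the value was -1.82, with an adjusted p of 0.0508. S100a9 was the next most negative, at -1.31 ± 0.39 (adjusted p = 0.331), and without blood library 11 it passed too, at -1.11. The other 7 ranged from -0.63 ± 0.56 (S100a8) to 0.48 ± 0.30 (Pglyrp1). At 6 months 1.17% of 16447 genes passed, the median over all genes was -0.14, and S100a9 (-3.98 ± 0.60, adjusted p = 0.00384) and S100a8 (-3.22 ± 0.58, adjusted p = 0.0102) did. Mmp9 was the one member with a positive difference, at 1.08 ± 0.40 (adjusted p = 0.214). Csf3r (-2.52 ± 0.52) and Cxcr2 (-2.20 ± 0.48) passed at 6 months as well. Lcn2 (-3.60 ± 0.66) passed too, but its blood means at 6 months were 0.204 CPM in silica and 0.222 CPM in air, at about the floor. It was not tested within blood for lack of counts, so its value here restates the lung difference. Without lung air library 19-24 no member passed at 6 months, without lung air library 20-25 S100a9 alone did, and without blood air library 25 the count was 6.

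Other genes of lists for neutrophils were counted in lung beside the 11.7% of all genes that passed at 1 day and the 19.6% at 6 months, in either direction. Among receptors and surface genes, 14 of 22 tested were higher and 1 lower in silica lungs at 1 day, and 13 were higher and 0 lower at 6 months. At 1 day these included the decoy interleukin 1 receptor Il1r2 (log2 fold change 1.88 ± 0.12), the leukotriene B4 receptor Ltb4r (1.44 ± 0.37) and the amplifying receptor Trem1 (1.03 ± 0.11), and at 6 months Il1r2 (3.402 ± 0.509), Csf3r (2.69 ± 0.31) and Cxcr2 (2.50 ± 0.29). Of 15 other specific and gelatinase granule genes, 6 were higher at 1 day and 9 at 6 months, with 0 and 1 lower. Lcn2 had the largest values (2.68 ± 0.16 at 1 day and 3.65 ± 0.53 at 6 months), with means of 0.130 to 0.222 CPM in the 4 blood groups, at about the floor. Hp, the gene of the hemoglobin-binding acute-phase protein haptoglobin, rose by 1.29 ± 0.06 and 2.47 ± 0.51. Lcn2, Hp and others of these are also made outside neutrophils. Of azurophil granule genes, 3 of 5 tested were higher at 1 day and 4 of 5 at 6 months. Those were Serpinb1a, Lyz2, Ctsc and, at 6 months, Cd63, a protease inhibitor, a lysozyme, a cathepsin and a tetraspanin found in other cells too, while Mpo and Elane were not tested in lung for lack of counts.

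Genes for neutrophil attractants and growth factors were higher in silica lungs for 7 of 9 tested at 1 day and 5 of 9 at 6 months, with 0 lower. The chemokine gene Cxcl6 had the largest values (3.73 ± 0.33 and 4.76 ± 0.37), followed by Cxcl2 (2.41 ± 0.24 and 2.75 ± 0.25). Of 16 genes for partners and inhibitors of the members, 4 were higher and 1 lower at 1 day, among them the antiprotease Serpina3n (1.46 ± 0.25) and the membrane metalloprotease Mmp14 (0.41 ± 0.04). At 6 months 6 were higher and 1 lower, among them the antiprotease Slpi (1.84 ± 0.44). The lists share genes, so their counts are not separate. Trem1 and Serpinb1a at both times and Slpi at 6 months were counted here and in a list above. Of the lineage transcription factors, the early-stage regulator Gfi1 fell by 2.68 (SE 0.39) in silica lungs at 6 months, Spi1 rose by 1.36 ± 0.24 and Cebpe by 1.32 ± 0.37, and at 1 day Cebpe did not pass (0.28 ± 0.34, adjusted p = 0.679). Gfi1 is also expressed in lymphocytes, and the NK cell list fell in 10 of 12 genes in the same comparison. In blood no gene of these lists passed at either time.

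Markers of other cells moved beside the members in lung. Of 15 monocyte and macrophage markers found, 7 of 14 tested were higher at 1 day and 8 of 15 higher and 1 lower at 6 months, with summed levels of 919 to 1078 CPM in silica lungs of 1 day, against 797 to 873 CPM in air lungs, and 1088 to 1251 CPM in silica lungs of 6 months, against 1076 to 1094 CPM in air lungs. Lung epithelium markers summed to 30666 to 34317 CPM in silica lungs of 1 day, against 25943 to 29571 CPM in air lungs, and 4 of 11 were higher and 1 lower. They summed to 28594 to 56928 CPM in silica lungs of 6 months, against 14521 to 19832 CPM in air lungs, and 6 of 11 were higher. Of 12 NK cell markers, 10 were lower at 6 months and 1 at 1 day. At 6 months 5 of 10 eosinophil, basophil and mast cell markers were higher and 1 lower (median 1.57, summing to 160 to 199 CPM in silica lungs, against 142 to 165 CPM in air lungs), as were 4 of 9 B cell markers with 0 lower (80.0 to 106 CPM in silica lungs, against 77.7 to 81.3 CPM in air lungs). Of 12 T cell markers, 6 were higher and 4 lower. In blood the same markers of lung epithelium were low, with Scgb1a1, Krt5 and Nkx2-1 at 0 in all 24 libraries. The part of these cells in the members' results was not tested.

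After group means were removed, the genes whose log2 CPM was most like the mean of the 9 members were, over 24 blood libraries, Hp (r = 0.87), Il1r2 (0.86), Ckap4 (0.86), Fpr1 (0.83), Aqp9 (0.82), Numb (0.81), Gmfg (0.80) and Ifit1 (0.79), of 7987 genes compared. Over 17 lung libraries they were Ifit1lb (0.86), Lilrb4 (0.84), Il1r2 (0.83), Siglec5 (0.83), Rnf217 (0.82), Tpcn2 (0.80), Lilrb3 (0.79) and Rcn2 (0.78), of 12329. Il1r2 stands in both. Between single members the correlation ranged from -0.10 to 0.96 in blood (median 0.40 over 36 pairs) and from -0.53 to 0.98 in lung (median 0.30). S100a8 and S100a9 were the closest pair in each tissue (0.96 and 0.98). Ngp and Cd177 were close in blood (0.94) and opposed in lung (-0.53). The libraries share depth and preparation, and these values are descriptions.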

How the data were processed

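The 4 deposited tables, 1 for each pair of tissue and time, hold estimated counts that Salmon gave for each gene, as the authors left them without scaling. Tools named in the submitters' processing notes are Salmon 1.10.1, STAR 2.6.1d, Trim Galore 0.6.7, bcl2fastq 2.19 and cutadapt 3.4, with build Rnor_6.0; for the annotation, its release was not given in the sources used here. Per the labels' protocols, globin messenger RNA was removed from blood RNA and libraries were stranded and polyadenylated-RNA based. No molecular identifiers are named, so floors cover counting error only.

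Columns were matched to samples by name. Counts were rounded. Lung pairs with under 10% of genes differing (chi-square, mean of at least 20 counts, whole counts in both) were averaged. CPM is the count scaled to a library total of 1 M. Each comparison was tested in edgeR 4.0.16 (R 4.3.3): filterByExpr (10 counts, 15 in all), TMM, robust quasi-likelihood F test, Benjamini-Hochberg adjustment over all genes tested, threshold 0.05. Differences of effects were interactions with 1 mean per group. The procedure was tested on simulated counts. Alternatives were other scalings, no filter, all groups in 1 fit, libraries unaveraged, each library left out, a replicate block and DESeq2 1.42.0. The members, the 16 gene lists and the rule for named genes (members always; up to 4 called genes per list with the largest change; Lcn2, Csf3r, Cxcr2, Mpo, Elane and Cebpe; the 8 most alike genes; 1 gene the rule names is not reported here) were chosen with earlier results of these data known. The 2 comparisons of times within an exposure were added after seeing the data. List names not found were Il7r, Azu1, Hba-a1, Hba-a2, Siglece, Ccr2, Adgre1, Adgre4 and Myb.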

Additional observations from a re-analysis of the deposited data

Results flagged for a closer look

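In groups of 4 to 10 libraries, 10 of 69 groups of values had a lowest or highest library set apart from the rest by Dixon's gap test, which chance gives in about 1 in 20. Lung silica library 13 of 1 day was high for S100a8 (126 CPM) and S100a9 (476 CPM). Blood silica library 31 of 6 months was low for S100a8 (349 CPM), S100a9 (941 CPM), Padi4 (10.2 CPM) and Camp (8.04 CPM), and its TMM factor was 0.521. Blood air library 08 of 1 day was high for Ngp (48.8 CPM) and Cd177 (20.9 CPM), the 2 members most alike within blood beside S100a8 and S100a9. Ltf stood apart in lung silica library 10 of 1 day (0.0655 CPM) and lung silica library 35 of 6 months (0.127 CPM), where 1 or 2 counts stand beside zeros.

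Silica effects that differed between the tissues by the test of the difference were those of Cd177 at 1 day (-2.17, log2, blood minus lung) and of S100a8 (-3.22) and S100a9 (-3.98) at 6 months. Between the times in lung (6 months minus 1 day) they were those of S100a8 (2.5997), S100a9 (2.596), Padi4 (1.44), Camp (1.41), Pglyrp1 (1.41) and Mmp8 (1.02). The differences at 6 months share the 2 late air lungs, which also stood apart in NK cell markers, and the part of those libraries' cell makeup in them was not tested.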

How the results depend on the processing

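Of 1935 alternative values for single members, 1810 kept their direction and side of the threshold, 55 lost a call, 25 gained one and 45 changed sign, each of the 45 for a value that had not passed. With all 4 lung groups in 1 fit, 594 genes and 2 members passed at 1 day and 6499 genes passed at 6 months. With every deposited lung library separate, 6396 genes passed in lung at 6 months, 50 for blood minus lung at 1 day, 797 genes and 4 members for blood minus lung at 6 months, and 8 members for air lungs of 6 months against 1 day. With library size only, blood minus lung at 6 months had 56 genes, Cd177 in blood at 1 day -0.079, Camp in blood minus lung at 1 day -0.059, and S100a8 and S100a9 in blood, 6 months minus 1 day, -0.025 and -0.064. There Mmp9 was 0.0075 with RLE factors and 0.0057 with no filter. DESeq2 called 2 genes in blood at 6 months. Without blood libraries 25 and 31, 1318 genes and 5 members passed for blood minus lung at 6 months.

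Lung and blood titles share 17 numbers, but their libraries deviated together above 0.1 for 3 of them (correlations -0.14 to 0.38, and 3 were highest with their own number), so the numbers were not taken as pairs. With a replicate block, blood minus lung had 0 genes and 0 members at 1 day and 351 genes and 4 members at 6 months (Ngp 0.052; Cd177 at 1 day -1.86, adjusted p = 0.480), against 5 genes, 0 members and 532 genes for the same libraries without it.

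Leaving out 1 library in turn, the genes that passed ranged over 1188 to 2240 (lung, 1 day), 56 to 4171 (lung, 6 months), 0 to 2 (blood, 6 months), 15 to 123 and 3 to 1257 (blood minus lung, 1 day and 6 months), 1642 to 5570 (lung, 6 months minus 1 day), 766 to 2998 (silica lungs over time) and 3643 to 8454 (air lungs over time). Members ranged over 0 to 7 (lung, 6 months), 1 to 2 and 0 to 6 (blood minus lung), 2 to 7 (lung, 6 months minus 1 day) and 0 to 6 (air lungs over time). Values that changed sign ranged over -0.87 to 0.12 (Mmp9, lung, 6 months), -0.44 to 0.17 (Ngp, blood, 1 day), -0.15 to 0.41 (Cd177, blood, 1 day), -0.052 to 0.29 (Camp, blood minus lung, 1 day), -0.44 to 0.32 (Ngp, blood minus lung, 6 months), -0.38 to 0.43 (Ngp, air lungs over time) and, for blood at 6 months minus 1 day, -0.024 to 0.36 (S100a8), -0.057 to 0.28 (S100a9) and -0.17 to 0.14 (Mmp9). The causes were not tested. Depth limits Ltf, Mpo and Elane.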

Other observations

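Relative to Csf3r counts, Ngp was higher at 6 months than at 1 day in both tissues of silica rats, and in air rats in lung. Ngp over Csf3r counts was 0.0358 to 0.106 in silica lungs of 6 months, against 0.0147 to 0.0335 in those of 1 day, and 0.0661 to 0.141 in silica blood of 6 months, against 0.0246 to 0.0477 in that of 1 day. Neither pair of groups overlapped. In air lungs it was 0.141 and 0.366 at 6 months, against 0.0476 to 0.0827 at 1 day, also without overlap. In air blood the ranges were 0.0319 to 0.182 at 6 months and 0.0323 to 0.0924 at 1 day and overlapped. In air lungs Ngp itself did not pass between the times (log2 fold change 0.09 ± 0.39, adjusted p = 0.874, edgeR), while Csf3r fell by 1.92. Other ratios to Csf3r were higher in the late air lungs too, such as Mmp8 (0.456 and 0.534, against 0.215 to 0.236 at 1 day) and Camp (0.0581 and 0.0687, against 0.0236 to 0.0266). Cd177 over Csf3r in silica blood was 0.0308 to 0.0645 at 6 months, against 0.0137 to 0.0254 at 1 day, also without overlap. Mean Csf3r in silica blood was 528 CPM at 1 day and 384 CPM at 6 months, mean Ngp 18.7 and 31.9 CPM, and mean Cd177 9.88 and 17.0 CPM. These ratios were looked up after seeing the data and carry no test. The share of all genes that separate in this way is not given. Time since exposure, age and differences between the deposited tables cannot be told apart here.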
